A study of Homo sapiens with 12 samples.

Results

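The cells described here are the GFP-positive motor neurons of WA09-Islet1-GFP cultures, and the question is which genes changed in them after cis-chlordane, an organochlorine pesticide, outside the unfolded protein response, axon guidance, oxidative phosphorylation and autophagy. The members were chosen by label as the 3 treated and the 3 control GFP-positive libraries, 6 of the 12 libraries of the series, and by gene as every gene that passed a filter on low counts, 15333 of the 28278 genes in the table. WA09-Islet1-GFP is a line of human embryonic stem cells, with GFP made from the promoter of ISL1, a LIM homeodomain gene of motor neurons, so the sort follows that promoter. The sample titles call all motor neurons untreated, also in the treated libraries, so the treatment was read from the rest of the title, which matches the treatment entry. All cells were differentiated for motor neurons, dissociated, replated and grown on before 16 hours with cis-chlordane or with DMSO as the control, then lifted with trypsin and sorted on GFP. The labels give the cells as wild-type and the dose as 10 µM; the methods of the study name another dose for this experiment, so the dose is uncertain. All libraries are from 1 cell line, and the sources used here define a biological replicate as a separate thaw of stored cells without stating it for these libraries, so p-values measure the spread between these samples. The 6 libraries held 27036649 to 38347050 counts in the controls and 29939533 to 34657783 in the treated group, and the first principal component of log2 CPM (77.1% of the variance) separated the 2 groups.

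Spinal motor neurons are specified by transcription factors. HOX genes and retinoic acid set the position along the body axis. Homeodomain proteins such as ISL1 and MNX1 set the motor neuron fate, and T-box and POU factors refine subtypes. Choline acetyltransferase (CHAT), the vesicular acetylcholine transporter (SLC18A3) and the choline transporter (SLC5A7) make them cholinergic. A neuron under amino acid or protein folding stress is known to slow translation and to raise, through ATF4, genes for amino acid import and tRNA charging.

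In the controls, ISL1, CHAT and SLC18A3 were higher in GFP-positive than in GFP-negative libraries. On a scale set across all 12 libraries, ISL1 had 66.1, 62.6 and 68.9 CPM (counts scaled to the size of the library) in control GFP-positive libraries and 2.5, 2.41 and 2.77 CPM in control GFP-negative libraries. The contrast in ISL1 is built into the sort, which follows its promoter. CHAT averaged 45.6 and 3.52 CPM and SLC18A3 793 and 133 CPM in control GFP-positive and GFP-negative libraries. The 8 sensory neuron markers were also higher there as a sum, at 84.4 to 97.6 CPM in GFP-positive and 36.7 to 57.4 CPM in GFP-negative controls. ISL1, CHAT and SLC18A3 were still present but lower after treatment. ISL1 stood at 8.02, 15.4 and 12.5 CPM in treated GFP-positive libraries, CHAT at 35.9, 53 and 47.9 CPM in control and 10.8, 11.8 and 12.5 CPM in treated ones, and SLC18A3 at 776, 925 and 678 and 164, 230.5 and 118 CPM. No treated GFP-positive library reached a control one for any of the 3. Of the 7 motor neuron markers, 6 fell and 0 rose by the rule used throughout, which asked for a change of 2-fold or more at an adjusted p under 0.05. The log2 fold changes were -2.38 (SE 0.20, adjusted p = 6.02e-12) for ISL1, -2.14 (SE 0.19, adjusted p = 1.68e-11) for SLC18A3, -1.89 (SE 0.19, adjusted p = 4.02e-10) for CHAT, -1.28 (SE 0.24, adjusted p = 3.2e-05) for MNX1, -1.15 (SE 0.16, adjusted p = 3.38e-07) for SLC5A7 and -1.09 (SE 0.19, adjusted p = 8.71e-06) for PRPH, a neuronal intermediate filament protein. ISL2 stayed under the fold limit at -0.77 (SE 0.24, adjusted p = 0.0084) and was called only without treated replicate 3 (-1.07). The calls of PRPH and MNX1 were lost when a trend with GC content was removed (values of -0.68 and -0.69), and that of PRPH also with library size alone as the scale and without control replicate 2 or treated replicate 3. In GFP-negative cells of the same treatments ISL1 changed by -2.23 (SE 0.36, adjusted p = 0.00148). In bulk RNA, fewer cells of a type and less RNA per cell cannot be told apart.

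**Figure D1:**
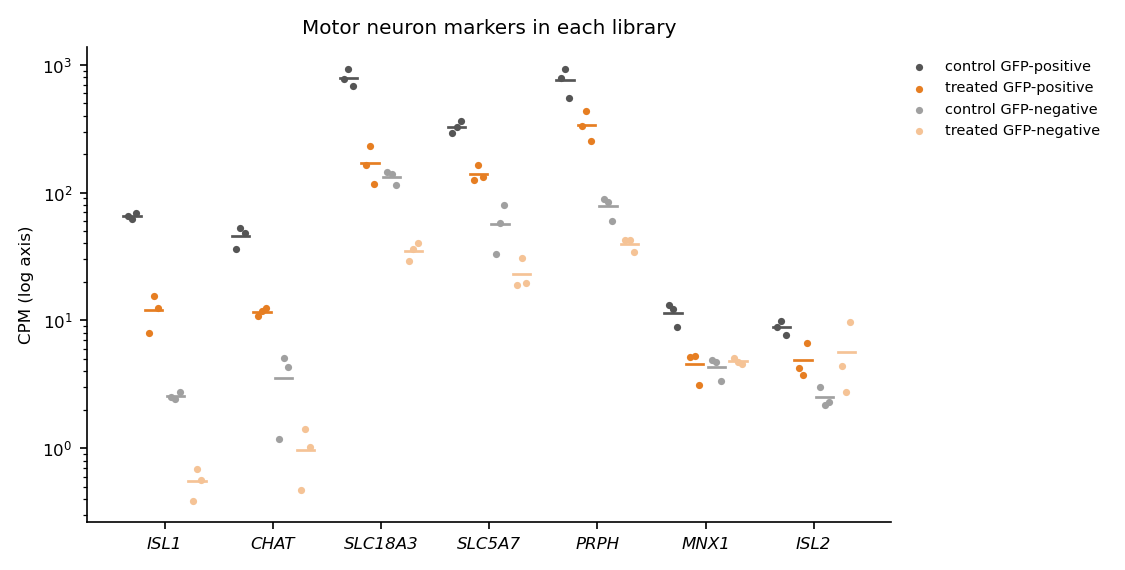
CPM of the 7 motor neuron markers (log axis) in each of the 12 libraries, scaled together; points are libraries and short lines are group means. In ISL1, CHAT, SLC18A3, SLC5A7, PRPH and MNX1 the 3 treated GFP-positive libraries lie below the 3 control GFP-positive ones.

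Markers of other cells moved as well, and their part in the results below was not tested. The summed markers of cycling cells ranged from 118 to 169 CPM in control and from 75.7 to 78.9 CPM in treated GFP-positive libraries, with all 7 genes above the floor of 3 counts. Those of 10 mesenchymal and endothelial genes ranged from 262 to 330.03 CPM and from 58.3 to 89.8 CPM, with LUM at the floor after treatment. The 9 interneuron markers summed to 8.86 to 9.87 CPM and then 2.08 to 2.40 CPM, with EN1 and LHX1 at the floor in controls and 5 of the 9 after treatment. The 8 sensory neuron markers summed to 84.4 to 97.6 CPM and then 13.5 to 19.3 CPM, with 7 of the 8 above the floor in both groups. The 9 glial markers went from 24.7 to 28.4 CPM to 73.6 to 88.1 CPM, with AQP4 at the floor in both groups, SOX10 and GFAP at the floor in controls and S100B after treatment. The 9 neural progenitor markers, of which HES5 was at the floor, summed to 2927 to 3282 CPM and then 2346 to 3190 CPM, ranges that overlap. Most of that sum came from NES and VIM, which were not called, while FABP7 (log2 fold change -2.03) and NOTCH1 (-1.64) fell and PAX6 (2.01) rose. Of the 11 markers of RNA and dissociation stress, all above the floor, the sums were 830.4 to 992 CPM in controls and 1115 to 1355 CPM in treated libraries. Blood markers stayed at 26.5 CPM or below in all 6 libraries. The 6 pluripotency markers summed to 154.6 to 171 CPM in controls and 49 to 60.9 CPM in treated libraries, most of it from LIN28A, which fell (-1.62), while NANOG, POU5F1 and TDGF1 were at the floor in both groups.

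In the treated GFP-positive libraries 1959 genes rose, 12.8% of those tested, and 1716 fell, 11.2% of those tested; 24.0% of genes were called in either direction. Counts of a list near or under these shares only describe the list. The median log2 fold change over all tested genes was 0.03. After the genes of the 4 excluded pathways were set aside, 1839 rises and 1658 falls remained. Of these, 1499 rises and 1361 falls also averaged 1 CPM or more over the 6 libraries and had groups that did not overlap; among all tested genes, treated libraries lay wholly above the controls in 29.6%, wholly below in 27.9% and either way in 57.5%. These are called movers below and were ranked by the size of their log2 fold change. Because this ranking used the same 6 libraries, the values of the ranked genes are a description.

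**Figure D2:**
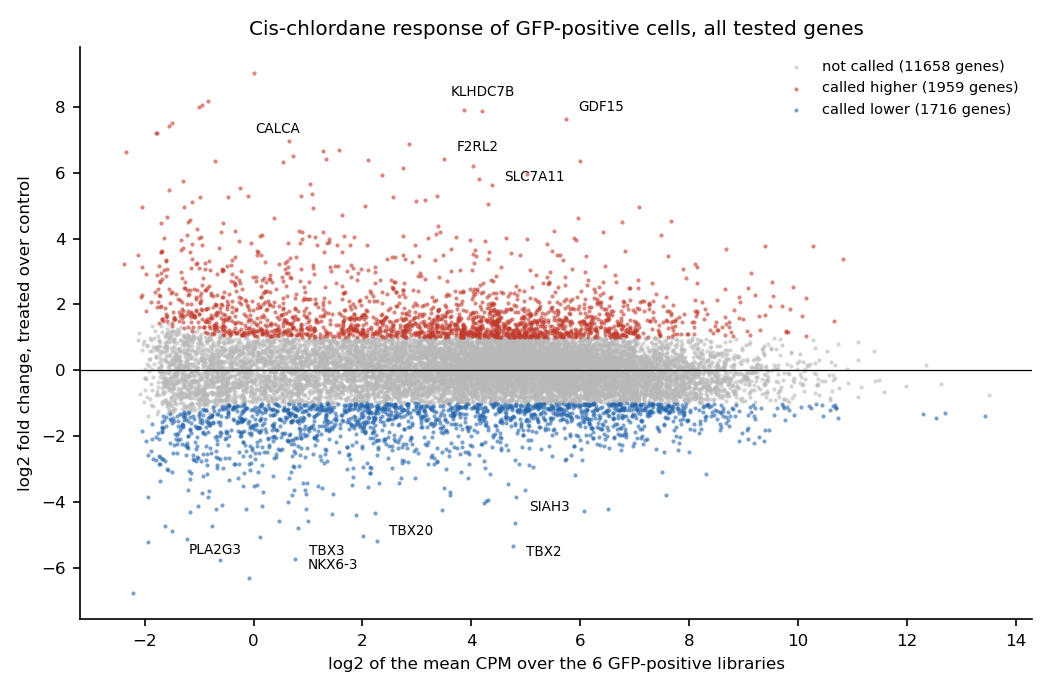
Log2 fold change of each of the 15333 tested genes in GFP-positive cells against the log2 of its mean CPM, with called genes in colour. The 1959 rises and 1716 falls lie above and below the line at 0, and named points are among the largest movers.

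The 100 largest rises spanned log2 fold changes of 3.18 to 7.89, 98 of them in protein-coding genes, and 60 of the 100 had a control mean under 1 CPM. At the edge of the 100, ZNF365 (3.18) was inside and LOC100130283 (3.17) outside. The 100 largest falls spanned sizes of 2.57 to 5.72, with 90 protein-coding genes and 9 long noncoding RNAs, and 50 had a treated mean under 1 CPM. Here LRRTM1 (-2.57) was inside and BATF2 (-2.55) outside. The rises had a median control level of 0.492 CPM and a median treated level of 12.4 CPM, while the falls had medians of 8.11 CPM in controls and 0.978 CPM in treated libraries.

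KLHDC7B, a kelch-domain protein gene (chromosome 22, 50545899 to 50551023 on GRCh38), led the rises with 0.113, 0.231 and 0 CPM in the control libraries and 37.3, 29.9 and 19.5 CPM in the treated libraries. Its log2 fold change was 7.89 (SE 0.39, adjusted p = 4.79e-18). Several secreted proteins were among the largest rises; values in brackets are log2 fold changes. GDF15 (chromosome 19, 18386158 to 18389176), a TGF-beta family hormone released by stressed cells, had 0.45, 0.663 and 0.477 CPM in the control libraries and 112, 109 and 96.1 CPM in the treated libraries, a change of 7.61 (SE 0.25, adjusted p = 7.69e-23). INHBE, which encodes the inhibin beta E subunit, went from 0.375, 0.49 and 0.413 CPM in the controls to 40.1, 26.1 and 29.9 CPM in the treated libraries (6.21, SE 0.28, adjusted p = 3.23e-19). All treated libraries of these genes lay above all controls, as the rule for movers required, and no control library reached 1 CPM.

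The calcitonin pair on chromosome 11 rose together. CALCA, which encodes calcitonin and the peptide CGRP and lies at chromosome 11, 14966668 to 14972351, had 0, 0.115 and 0.0318 CPM in the control libraries and 5.4, 4.7 and 7.49 CPM in the treated libraries (6.68, SE 0.49, adjusted p = 1.44e-13). Its neighbour CALCB, the gene of beta-CGRP at chromosome 11, 15073593 to 15078637, had 0.975, 1.5 and 0.572 CPM in the control libraries and 60.6, 70.8 and 61.3 CPM in the treated libraries (5.96, SE 0.26, adjusted p = 2.43e-19). Both genes were separated between the groups, as the rule for movers required. As they resemble each other in sequence, reads shared between them could have been split by the counting. PCSK1, the prohormone convertase that cuts peptide precursors, changed by 3.60 (SE 0.23, adjusted p = 2.11e-15), and SCG2, a granin of dense-core vesicles, by 1.60 (SE 0.16, adjusted p = 3.73e-10).

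Other top rises belonged to no single family. F2RL2, a protease-activated receptor of the thrombin receptor group, had 0.300, 0.346 and 0.127 CPM in the control libraries and 24.6, 20.5 and 21.8 CPM in the treated libraries (6.41, SE 0.30, adjusted p = 1.18e-18). CLDN1, a tight junction protein, went from 0.788, 1.38 and 1.24 CPM in the controls to 46.1, 39.4 and 29.4 CPM in the treated libraries (5.05, SE 0.26, adjusted p = 7.56e-18). NIBAN1, a stress-response gene, reached 41.3, 34.7 and 28.5 CPM (5.80, SE 0.26, adjusted p = 3.29e-19). TMEM144 had 0.0375, 0 and 0.127 CPM in the control libraries and 4.25, 4.34 and 6.29 CPM in the treated libraries (6.42, SE 0.51, adjusted p = 1.05e-12). Metabolic enzymes among the 25 largest rises were DMGDH, a dimethylglycine dehydrogenase (6.13, SE 0.34), GPAT3, which acylates glycerol-3-phosphate (5.91, SE 0.37), MOCOS, the molybdenum cofactor sulfurase (5.30, SE 0.29), and MIOX, the myo-inositol oxygenase (5.30, SE 0.55). Genes better known from muscle or the synapse were SCN4A, the skeletal muscle sodium channel (5.25, SE 0.36), and CACNG3, a calcium channel and AMPA receptor auxiliary subunit (5.65, SE 0.54). NPFFR2, a neuropeptide FF receptor (5.17, SE 0.29), THBS2, a matrix thrombospondin (4.98, SE 0.36), and SPATS1 (5.13, SE 0.33) were also among the 25. Where no control library exceeded 3 counts only bounds hold: INSC was at least 31.8-fold, ASB18 at least 48.5-fold, FIBIN at least 42-fold and IGFN1 at least 33.3-fold higher, with the floor taken as 3 counts over the control group (0.0981 CPM).

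**Figure D3:**
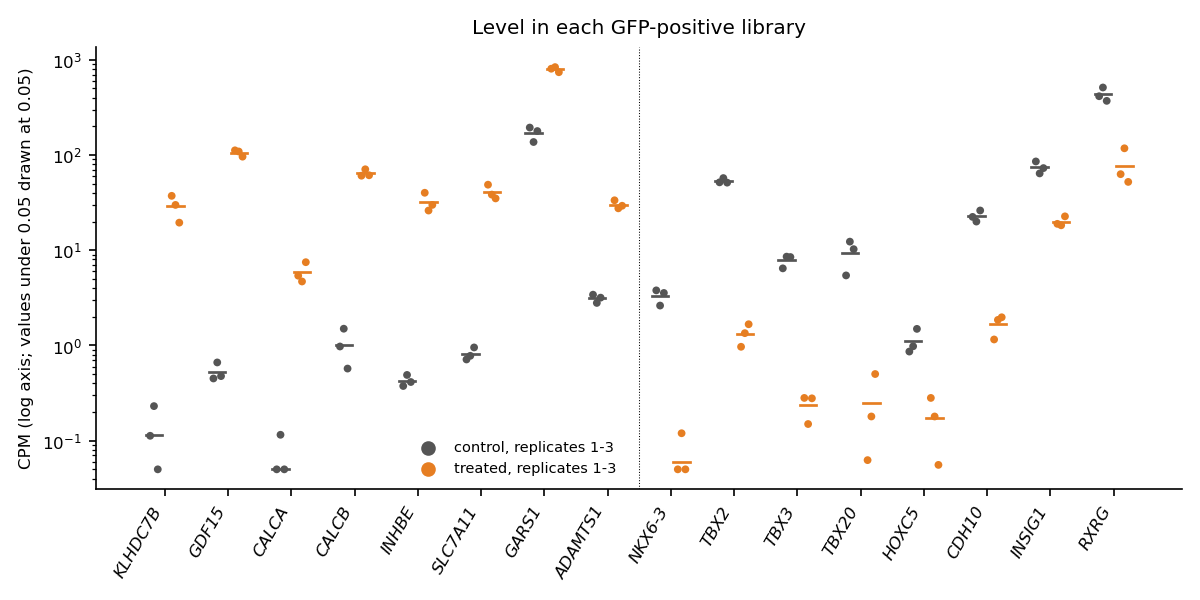
CPM on a log axis in each control and treated GFP-positive library for 8 genes that rose and 8 that fell, with group means as lines; values under 0.05 CPM are drawn at 0.05. No treated point overlaps a control point in any of the 16 genes, as the rule for movers required of the movers among them.

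Among the 25 largest falls were 3 T-box transcription factors. TBX2 (chromosome 17, 61399843 to 61409466) had 51.6, 57.3 and 51.3 CPM in the control libraries and 0.968, 1.35 and 1.67 CPM in the treated libraries, a log2 fold change of -5.32 (SE 0.24, adjusted p = 3.23e-19). TBX3 (chromosome 12, 114670255 to 114684175) had 6.45, 8.56 and 8.48 CPM in the control libraries and 0.281, 0.15 and 0.278 CPM in the treated libraries (-5.03, SE 0.35, adjusted p = 3.32e-14), and TBX20, a T-box factor of hindbrain motor neurons, 5.44, 12.3 and 10.3 CPM in the control libraries and 0.0625, 0.179 and 0.501 CPM in the treated libraries (-5.18, SE 0.41, adjusted p = 8.47e-13). The 3 treated libraries of each lay below the 3 controls, as the rule for movers required. Of the 8 T-box genes tested, these 3 fell (37.5% beside 11.2% of all genes) and 2 rose (25% beside 12.8%), with a median of -0.24. The rises were small and at low levels: TBX15 changed by 1.27 (SE 0.35, adjusted p = 0.00297) and TBX19 by 1.17 (SE 0.46, adjusted p = 0.0324). The call of TBX19 was lost in DESeq2, without a filter and when any single library was left out.

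The falls of TBX2 and TBX3 differed between the sort fractions. TBX20 was too low for the fit of GFP-negative cells alone, and its difference between fractions was tested but not called. In GFP-negative cells TBX2 changed by -1.07 (SE 0.29, adjusted p = 0.0198) and TBX3 by -0.48 (SE 0.78, adjusted p = 0.675), and the difference of the 2 responses (GFP-positive minus GFP-negative, log2) was -4.33 (SE 0.31, adjusted p = 5.68e-06) for TBX2 and -4.64 (SE 0.86, adjusted p = 0.0105) for TBX3. The background for this test is 355 of 16226 genes (2.19%). Ranking by the GFP-positive change favours a larger response in that fraction. For TBX3 the call was lost without treated GFP-negative replicate 3 (-3.38, adjusted p = 0.084).

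On the list of transcription factors of motor neuron and hindbrain identity, 19 of 37 tested genes fell and 3 rose. That was 51.4% and 8.11%, beside 11.2% and 12.8% of all genes, with a median log2 fold change of -1.09. NKX6-3, a homeodomain repressor, had the largest fall of all movers, from 3.79, 2.62 and 3.56 CPM in the controls to 0.0312, 0.12 and 0.0278 CPM in the treated libraries (-5.72, SE 0.51, adjusted p = 1.82e-11). MAFA, a bZIP factor, went from 55.1, 49.9 and 35.4 CPM in the controls to 3.53, 5.65 and 3.81 CPM in the treated libraries (-3.43, SE 0.23, adjusted p = 7.97e-15). LMO3, a LIM-only cofactor, changed by -3.40 (SE 0.28, adjusted p = 2.19e-12) and PHOX2A, a factor of cranial motor and noradrenergic neurons, by -3.14 (SE 0.20, adjusted p = 3.27e-15). ISL1 itself and MNX1 were among the 19, while LHX3, the partner of ISL1 in motor neuron fate, was not called at -0.39 (SE 0.39, adjusted p = 0.422). The 3 rises were EN2 (3.93, SE 0.58, adjusted p = 7.56e-07), FOXP2 (2.10, SE 0.28, adjusted p = 8.47e-08) and PAX6 (2.01, SE 0.21, adjusted p = 5.03e-10). The rises numbered 5 without treated replicate 3, with the GC trend removed or with library size alone. PAX6, a progenitor factor, went from 6.15, 7.84 and 9.72 CPM in the controls to 34.9, 27.4 and 33.2 CPM in the treated libraries, while in GFP-negative cells it changed by 0.10 (SE 0.17, adjusted p = 0.668).

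Of 20 HOX genes tested, 15 fell (75% beside 11.2% of all genes) and 1 rose (5% beside 12.8%), with a median of -1.59. The falls covered paralog groups at the 3′ (anterior) end: HOXD3 went from 163, 175 and 182 CPM in the controls to 39.2, 39.5 and 32.2 CPM in the treated libraries (-2.23, SE 0.17, adjusted p = 2.49e-13), HOXB4 from 264, 318 and 265 CPM in the controls to 52.6, 64.7 and 46.2 CPM in the treated libraries (-2.37, SE 0.17, adjusted p = 9.57e-14) and HOXA5 from 9.83, 11.5 and 11.5 CPM in the controls to 1.5, 2.69 and 2.42 CPM in the treated libraries (-2.31, SE 0.25, adjusted p = 2.08e-09). HOXC5 changed by -2.69 (SE 0.53, adjusted p = 5.94e-05). The 1 rise was the most posterior of the 20, HOXB9, with 0.338, 0.548 and 0.858 CPM in the control libraries and 6.59, 4.1 and 5.12 CPM in the treated libraries (3.16, SE 0.35, adjusted p = 2e-09). HOXA7, HOXB7, HOXB8 and HOXD8 were not called, at -1.03, -0.25, -0.82 and -0.60. In GFP-negative cells 14 of the 20 fell and 1 rose, beside 9.75% and 8.59% of all genes tested there. That rise was again HOXB9, at 5.43 (SE 0.32, adjusted p = 1.11e-05), and the difference of the responses was -2.36 (SE 0.47, adjusted p = 0.0165), a call that was lost without any of 5 libraries (control GFP-negative replicate 2, control GFP-positive replicates 2 and 3, treated GFP-negative replicate 1 and treated GFP-positive replicate 3), the smallest difference being -1.98.

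Genes of the retinoid pathway, which carries the caudalizing signal of retinoic acid, fell in 8 of 14 tested genes and rose in 1 (median -1.17). The shares were 57.1% and 7.14%, beside 11.2% and 12.8% of all genes. Without control replicate 3, with the GC trend removed or with library size alone, 2 rose. Among nuclear receptors RXRG had 414, 512 and 371 CPM in the control libraries and 62.9, 118 and 52.2 CPM in the treated libraries (-2.48, SE 0.21, adjusted p = 6e-12), RARB changed by -1.63 (SE 0.25, adjusted p = 1.37e-06) and RXRA by -1.51 (SE 0.19, adjusted p = 4.65e-08). CRABP2, which carries retinoic acid in the cytosol, went from 595, 754 and 597 CPM in the controls to 169.8, 267 and 165 CPM in the treated libraries (-1.69, SE 0.18, adjusted p = 9.2e-10). DHRS3, a retinaldehyde reductase, was the rise, from 0.75, 1.47 and 0.604 CPM in the controls to 9.46, 11 and 9.63 CPM in the treated libraries (3.39, SE 0.30, adjusted p = 1.21e-11). The groups did not overlap in any of these 5 genes, as in 57.5% of all tested genes.

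Of 21 cadherins tested, 11 fell (52.4% beside 11.2% of all genes) and 2 rose (9.52% beside 12.8%), with a median of -1.22. CDH10, a type II cadherin, had 22.4, 20.01 and 26.1 CPM in the control libraries and 1.16, 1.85 and 1.98 CPM in the treated libraries (-3.77, SE 0.24, adjusted p = 4.86e-15). CDH20 changed by -2.77 (SE 0.25, adjusted p = 3.13e-11) and CDH12 by -2.96 (SE 0.33, adjusted p = 3.33e-09); CDH5, an endothelial cadherin, was at 0.731 CPM or below in controls and changed by -2.69 (SE 0.65, adjusted p = 0.000737). CDH3 rose by 1.38 (SE 0.23, adjusted p = 4.59e-06) on the log2 scale and CDH18 by 1.06 (SE 0.26, adjusted p = 0.000776), the latter a call that was lost with all 12 libraries in 1 fit, with the GC trend removed and without control replicate 2 or treated replicate 1. Synaptic organisers also stood among the 25 largest falls. NRXN3, a presynaptic neurexin, went from 35.9, 31.9 and 41.6 CPM in the controls to 2.12, 3.11 and 1.84 CPM in the treated libraries (-3.95, SE 0.23, adjusted p = 4.15e-16), and the secreted C1q-like proteins C1QL1 and C1QL4 changed by -3.79 (SE 0.23) and -3.93 (SE 0.22).

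The remaining large falls were of mixed function. SIAH3, of the seven-in-absentia ubiquitin ligase family, had 54.7, 54 and 51.6 CPM in the control libraries and 1.09, 2.3 and 3.03 CPM in the treated libraries (-4.63, SE 0.25, adjusted p = 6.58e-17). ASIC4, an acid-sensing channel subunit, went from 138, 135 and 111 CPM in the controls to 5.84, 10.4 and 3.65 CPM in the treated libraries (-4.27, SE 0.25, adjusted p = 2.81e-16), and BTBD17, a BTB-domain protein, from 187, 214 and 119 CPM in the controls to 7.5, 14.4 and 6.46 CPM in the treated libraries (-4.20, SE 0.24, adjusted p = 3.11e-16). DRGX, a homeodomain factor of sensory neurons, had 35.2, 35.6 and 36.1 CPM in the control libraries and 1.41, 1.47 and 3.7 CPM in the treated libraries (-4.01, SE 0.27, adjusted p = 1.23e-14), and it is among the sensory neuron markers summed above. Ligands and receptors were FGF10 (-4.20, SE 0.42), EDN3 (-4.10, SE 0.57), WNT7B (-3.77, SE 0.46), the somatostatin receptor SSTR3 (-4.56, SE 0.46) and the membrane peptidase MME (-3.74, SE 0.39). PLA2G3, a secreted phospholipase, ended at the floor and was at least 23.4-fold lower. SCML4 (-4.22, SE 0.28), PDZRN4 (-4.33, SE 0.32), BRINP3 (-4.79, SE 0.47), CD248 (-4.38, SE 0.34), LRRC3B (-4.55, SE 0.55) and DNAJC22 (-3.99, SE 0.45) were further falls among the 25, with VARS1 described below. In each of them the treated libraries lay below the controls, as the rule for movers required.

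Cytosolic aminoacyl-tRNA synthetases and their scaffold proteins, which charge tRNAs, rose in 14 of 24 genes and fell in 1 (median 1.06). As shares these were 58.3% and 4.17%, beside 12.8% and 11.2% of all genes. By contrast, the 20 synthetases of mitochondria had 0 calls in edgeR (median -0.20). Of these 20, 9 had an unadjusted p under 0.05 and DESeq2 called 0; without treated replicate 3, 2 were called lower, and 1 without control replicate 3 or treated replicate 2. With the GC trend removed 1 was called higher. GARS1, the glycyl-tRNA synthetase (chromosome 7, 30594735 to 30634033), had 194, 137 and 178 CPM in the control libraries and 806, 838 and 741 CPM in the treated libraries (2.23, SE 0.17, adjusted p = 3.05e-13). IARS1 changed by 2.12 (SE 0.16, adjusted p = 3.32e-13), WARS1 by 2.08 (SE 0.16, adjusted p = 5.87e-13) and EPRS1 by 1.98 (SE 0.16, adjusted p = 2.8e-12). Histidyl- and glutaminyl-tRNA synthetase were not called, with HARS1 at -0.32 and QARS1 at 0.06. The fall was VARS1, with 8.4, 0.49 and 6.64 CPM in the control libraries and 0.187, 0.329 and 0.223 CPM in the treated libraries (-4.36, SE 0.57, adjusted p = 7.84e-08). Its 3 controls differed widely among themselves, and it lies in the histocompatibility region of chromosome 6, of which hg38 holds alternate copies, so its value is uncertain.

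Amino acid transporters rose in 18 of 34 genes (52.9% beside 12.8% of all genes) and fell in 0 (median 1.02). SLC7A11, the cystine importer, had 0.713, 0.778 and 0.953 CPM in the control libraries and 48.8, 38.4 and 35 CPM in the treated libraries (5.63, SE 0.25, adjusted p = 3.23e-19). SLC3A2, the heavy chain it pairs with, went from 169, 191 and 146 CPM in the controls to 2336, 2434 and 2184 CPM in the treated libraries (3.78, SE 0.18, adjusted p = 7.24e-19). The cationic transporter SLC7A3 changed by 4.61 (SE 0.21, adjusted p = 3.23e-19) and the glutamine transporter SLC1A5 by 3.24 (SE 0.18, adjusted p = 4.79e-17). Without control replicate 1, 2 transporters were called lower, and 1 without treated replicate 3 or with the GC trend removed. None of the glutamate transporters SLC1A1, SLC1A2 and SLC1A3 was called, at -0.70, 0.64 and -0.90.

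Several of these promoters hold the CARE letters, TGATGNAAN, the composite site that C/EBP and ATF4 proteins are known to bind. RefSeq promoter windows (GRCh38.p14, 250 bases before to 50 after the start) were matched by symbol for 11902 of the 15333 tested genes, and 1.76% of these 11902 held CARE on either strand. The share was 6 of 11 for the synthetase genes that rose, 3 of 14 for the transporters that rose (SLC3A2, SLC38A1 and SLC7A1), 5 of 77 (6.49%) for the 100 largest rises and 3 of 67 (4.48%) for the 100 largest falls. A match is a description of letters, not of binding. The sequences of the 6 synthetases show where the letters recur, with 10 bases to each side, 5′ to 3′ on the strand of the gene and the CARE letters or their reverse complement in capitals. The windows are AARS1 (chr16:70289676-70289704, minus strand), CARS1 (chr11:3057408-3057436, minus strand), IARS1 (chr9:92293693-92293721, minus strand), MARS1 (chr12:57488053-57488081, plus strand), NARS1 (chr18:57621804-57621832, minus strand) and TARS1 (chr5:33440956-33440984, plus strand).

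AARS1: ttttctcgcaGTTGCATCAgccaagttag
CARS1: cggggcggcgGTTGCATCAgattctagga
IARS1: ttttcagcgcGTTGCATCAcctccgtgcg
MARS1: gccggttccgGTTGCATCAgcgagggatt
NARS1: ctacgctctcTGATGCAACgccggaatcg
TARS1: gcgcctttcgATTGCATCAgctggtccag

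In AARS1 the match begins 188 bases before the start of the gene, and in the other five it begins between 14 bases before and 14 bases after it. Among the largest rises the letters occurred in KLHDC7B (chr22:50545737-50545765, plus strand), CALCA (chr11:14972518-14972546, minus strand), AGT (chr1:230714201-230714229, minus strand) and SLC3A2 (chr11:62881725-62881748, plus strand), shown with the same capitals for comparison, and in DLGAP1-AS2 (chr18:3603526-3603554, plus strand), an antisense RNA whose sequence is not shown.

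KLHDC7B: gtttctggtgATTTCATCAgggccacatc
CALCA: tcccccaccaTTTCCATCAatgacctcaa
AGT: tctggccaagTGATGTAACcctcctctcc
SLC3A2: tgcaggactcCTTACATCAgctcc

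In KLHDC7B the match begins 152 bases before the start and in SLC3A2 it lies 36 bases after it. AGT, the angiotensinogen gene, had 0.15, 0.0577 and 0.0953 CPM in the control libraries and 2.44, 2.36 and 2.67 CPM in the treated libraries (4.62, SE 0.48, adjusted p = 7.16e-10). The T-box site GGTGTGA stood in 8 of 77 promoters of the largest rises (10.4%), in 2 of 67 of the largest falls (2.99%) and in 2.96% of all. The E-box CACGTG stood in 14 of 77 (18.2%), 3 of 67 (4.48%) and 9.97%. The CRE letters TGACGTCA stood in 2 of 77 (2.60%), 0 of 67 and 3.23%, the ERSE, a site of the unfolded protein response, in 0 of 77, 0 of 67 and 0.126%, and the antioxidant core TGANNNNGC in 32 of 77 (41.6%), 27 of 67 (40.3%) and 43.1%. Over all genes that rose, the T-box site stood in 56 of 1505 promoters (3.72%) and the E-box in 173 of 1505 (11.5%), nearer to the shares of all genes. Both strands were searched in each case, and the CARE and antioxidant letters can overlap.

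Secreted hormones and growth factors of the stress list rose in 8 of 29 genes (27.6%) and fell in 3 (10.3%, near the 11.2% of all genes), with a median of 0.32. Besides GDF15 and INHBE, VEGFA, the angiogenic factor, had 22.1, 18.8 and 18 CPM in the control libraries and 385, 291 and 336 CPM in the treated libraries (4.10, SE 0.18, adjusted p = 3.23e-19). STC2, a stanniocalcin that is also on the excluded list of the unfolded protein response, changed by 4.49 (SE 0.20, adjusted p = 2.43e-19), and ADM2, an adrenomedullin-related peptide of the calcitonin family, by 3.98 (SE 0.22, adjusted p = 1.41e-16). The falls were EDN3 (-4.10, SE 0.57, adjusted p = 2.92e-07), IGFBP3 (-1.40, SE 0.25, adjusted p = 1.36e-05) and CCN3 (-1.15, SE 0.31, adjusted p = 0.00222), and CCN3 was not called without control replicate 2. The list had 6 falls without treated replicate 2 and 5 without control replicate 3 or with all 12 libraries in 1 fit.

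Among neuropeptide and granin genes 6 of 32 rose (18.8% beside 12.8% of all genes) and 7 fell (21.9% beside 11.2%), with a median of -0.29. Against the rises of CALCA, CALCB, PCSK1 and SCG2 stood falls of ADCYAP1, the PACAP gene, from 30.5, 29.4 and 20.3 CPM in the controls to 5.47, 5.92 and 5.07 CPM in the treated libraries (-2.28, SE 0.21, adjusted p = 4.54e-11), and of PCSK1N, an inhibitor of PCSK1, from 607, 712 and 448 CPM in the controls to 159, 207 and 139 CPM in the treated libraries (-1.80, SE 0.18, adjusted p = 2.44e-10). NXPH2, a neurexophilin, ended at the floor and was at least 4.87-fold lower. HCRT, under 1 CPM in every library, changed by -1.56 (SE 0.53, adjusted p = 0.0136) with overlapping groups. With the GC trend removed, the calls of PCSK1N and HCRT were lost, and 5 of the list rose and 4 fell.

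Genes on the p53 target list rose in 13 of 30 (43.3% beside 12.8% of all genes) and fell in 2 (6.67% beside 11.2%, median 0.55). PMAIP1 (NOXA), a proapoptotic BH3-only protein, changed by 4.24 (SE 0.49, adjusted p = 6.58e-09), the receptors EDA2R and TNFRSF10B (a TRAIL receptor) by 3.95 (SE 0.24, adjusted p = 1.14e-15) and 3.15 (SE 0.17, adjusted p = 3.17e-17), and GADD45B by 3.34 (SE 0.25, adjusted p = 1.7e-13). TNFRSF10B went from 55.1, 60.9 and 56.1 CPM in the controls to 557, 496 and 476 CPM in the treated libraries, without overlap. CDKN1A, the cell cycle inhibitor p21, changed by 1.76 (SE 0.18, adjusted p = 4.96e-10). MDM2 and BAX, classical targets, were under the fold limit at 0.41 (SE 0.19, adjusted p = 0.0659) and -0.43 (SE 0.18, adjusted p = 0.0418), and TP53I3 and PHLDA3 fell, by log2 fold changes of -1.36 (SE 0.21, adjusted p = 1.9e-06) and -1.11 (SE 0.21, adjusted p = 3.75e-05); the call of PHLDA3 was lost with the GC trend removed. As background, TNFRSF10B, PMAIP1, SESN2 and members of the GADD45 group are known to be induced in endoplasmic reticulum stress without p53 as well.

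Sterol and fatty acid synthesis fell in 25 of 44 genes (56.8% beside 11.2% of all genes) and rose in 3 (6.82% beside 12.8%, median -1.12). INSIG1, a sterol-responsive anchor of SREBP, had 85.6, 64.1 and 72.9 CPM in the control libraries and 18.9, 18.3 and 22.7 CPM in the treated libraries (-1.89, SE 0.18, adjusted p = 9.64e-11), without overlap. TM7SF2, a sterol reductase, changed by -1.79 (SE 0.17, adjusted p = 8.84e-11) and MVK, mevalonate kinase, by -1.78 (SE 0.18, adjusted p = 6.01e-10). SREBF2, the transcription factor of the pathway, changed by -0.45 (SE 0.16, adjusted p = 0.018). The rises were ELOVL7 (2.69, SE 0.48, adjusted p = 1.59e-05), FADS3 (1.35, SE 0.17, adjusted p = 3.27e-08) and ELOVL4 (1.01, SE 0.18, adjusted p = 1.82e-05), of which ELOVL4 lost its call in DESeq2, with RLE scaling, with all 12 libraries, with the GC trend removed and without control replicate 2 or treated replicate 3. In GFP-negative cells 16 of the 44 fell and 1 rose, beside 9.75% and 8.59% of all genes tested there.

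Extracellular proteases split evenly: of 44 ADAM, ADAMTS and matrix metalloprotease genes 13 rose and 13 fell (29.5% each, beside 12.8% and 11.2% of all genes, median 0.05). ADAMTS1 had 3.41, 2.8 and 3.18 CPM in the control libraries and 33.5, 27.6 and 29.3 CPM in the treated libraries (3.27, SE 0.22, adjusted p = 8.56e-15), ADAMTS20 changed by 4.05 (SE 0.35, adjusted p = 9.39e-12) and MMP1, a collagenase, by 4.04 (SE 0.42, adjusted p = 5.22e-10). In GFP-negative cells MMP1 changed by 8.51 (SE 0.52, adjusted p = 1.19e-05), more than in GFP-positive cells (a difference of -4.57, SE 0.79, adjusted p = 0.00763), a call that was lost without control GFP-positive replicate 3 (-3.83). Against them ADAMTS12 went from 16.6, 14.9 and 22.2 CPM in the controls to 2.53, 2.9 and 2.48 CPM in the treated libraries (-2.76, SE 0.23, adjusted p = 3.45e-12), and MMP15, a membrane-type protease, from 452, 509.8 and 405 CPM in the controls to 124, 146 and 99.2 CPM in the treated libraries (-1.89, SE 0.17, adjusted p = 2.28e-11). By symbol, the 16 ADAMTS genes had 8 rises and 6 falls.

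Among 69 potassium channel symbols 9 rose (13%, near the 12.8% of all genes) and 17 fell (24.6% beside 11.2%), with a median of -0.09, and with the GC trend removed 11 fell; the list also holds KCNMB2-AS1, KCNK15-AS1, KCNQ1OT1 and KCNRG, which are not channel subunits and were not called. KCNG1, a modifying subunit, had 6.49, 5.54 and 4.42 CPM in the control libraries and 89.3, 86.2 and 58.4 CPM in the treated libraries (3.83, SE 0.21, adjusted p = 1.08e-16), and KCNK6, a K2P channel, changed by 3.41 (SE 0.41, adjusted p = 1.31e-08). The inward rectifier KCNJ12 went from 102, 101 and 76.7 CPM in the controls to 12.6, 15.6 and 14.9 CPM in the treated libraries (-2.70, SE 0.19, adjusted p = 2.95e-14), and the K2P channels KCNK2 and KCNK5 changed by -2.80 (SE 0.30, adjusted p = 1.34e-09) and -2.73 (SE 0.25, adjusted p = 2.8e-11). Of the 8 KCNH (ether-a-go-go) genes, 5 fell and 0 rose, with KCNH1 at -2.66 (SE 0.28, adjusted p = 7.27e-10).

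Of 28 interferon-stimulated and antigen presentation genes, 7 rose (25% beside 12.8% of all genes) and 3 fell (10.7%, near the 11.2% of all genes), with a median of 0.52. IRF1, a transcription factor, had 2.25, 1.64 and 1.49 CPM in the control libraries and 21.8, 17.9 and 28.8 CPM in the treated libraries (3.68, SE 0.25, adjusted p = 1.37e-14), MX1, an antiviral GTPase, 1.61, 0.865 and 0.762 CPM in the control libraries and 16.5, 13 and 22.3 CPM in the treated libraries (4.02, SE 0.28, adjusted p = 4.79e-14), and ISG20, an exonuclease, changed by 4.20 (SE 0.43, adjusted p = 4.02e-10). IFIT3 was at the floor in controls and at least 5.69-fold higher. ISG15 and IRF7 were not called, at 0.55 and 0.60. The falls were IFITM1, IFITM2 and IFI6 (-2.09, -1.26 and -1.40). Without treated replicate 2 the rises numbered 4, and without treated replicate 1 the falls numbered 5.

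Long intergenic noncoding RNAs had 31 rises and 42 falls among 235 tested (median -0.01), or 13.2% and 17.9% beside the background of 12.8% and 11.2%. The largest rises, LINC00431, LINC02318 and LINC00571, began at the floor and were at least 9.93-fold, 6.39-fold and 8.14-fold higher, and LINC02593 fell from 18.3, 15.7 and 14.1 CPM in the controls to 2.47, 3.32 and 1.03 CPM in the treated libraries (-2.82, SE 0.28, adjusted p = 1.61e-10). By contrast, none of the 46 proteasome genes was called by edgeR, with log2 fold changes from -0.81 to 1.00; 26 had an unadjusted p under 0.05, 22 an adjusted p under 0.05, and DESeq2 called 0. With library size alone as the scale, under which the median of all genes moved to 0.14, 3 proteasome genes were called higher, and 2 without control replicate 1 or treated replicate 1.

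**Figure D4:**
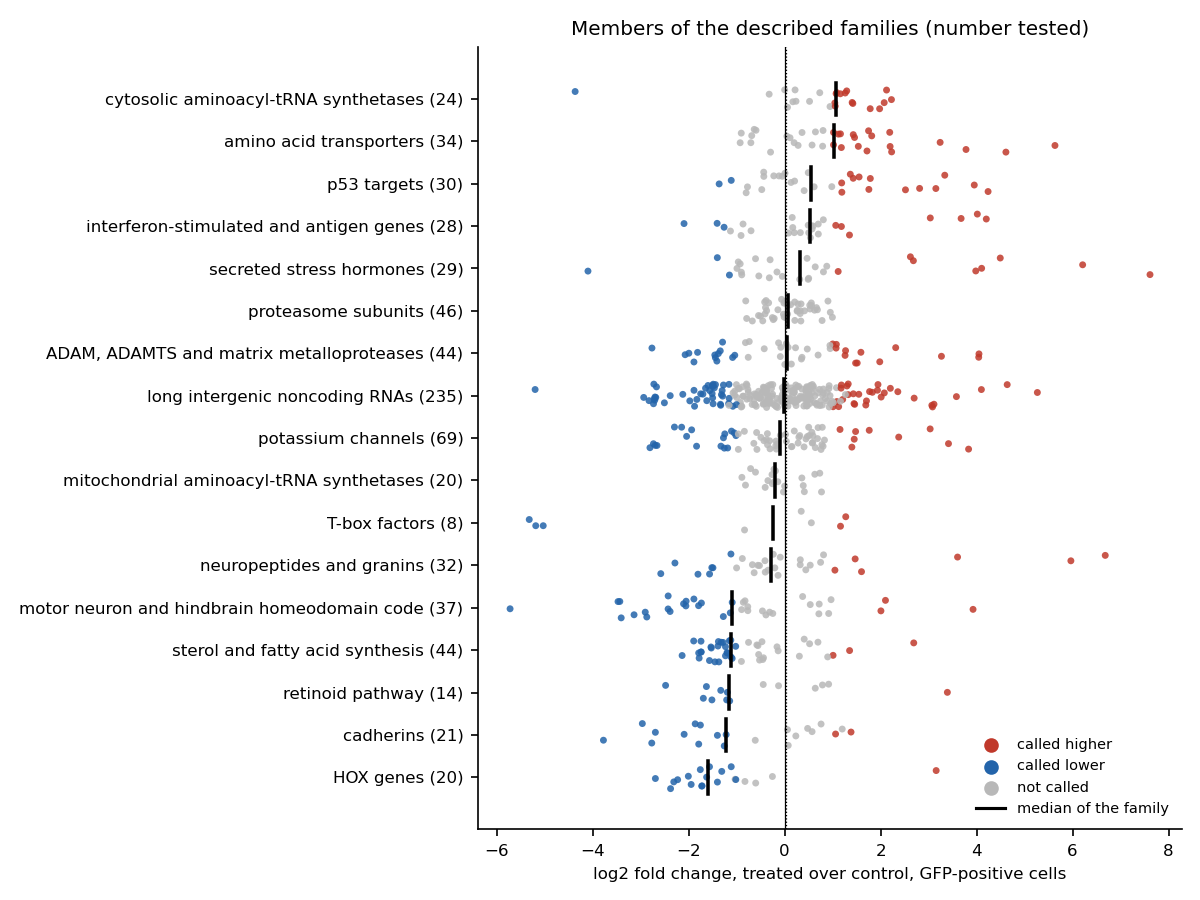
Log2 fold change in GFP-positive cells of each tested member of the 17 families described, with the family median as a black bar and the median of all genes as a dotted line. HOX genes, cadherins and the retinoid pathway lie lowest, with medians of -1.59, -1.22 and -1.17, and cytosolic synthetases highest at 1.06.

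The GFP-negative libraries were not used for the ranking and give a second reading of the same genes. The sources do not say whether same-numbered libraries of the 2 fractions share a culture, and their deviations correlated. This reading may therefore not be independent of the first. Control GFP-negative replicate 3 stood apart with summed blood markers of 6035 CPM against 4.82 and 7.49 CPM in the other two controls and 0.874 to 233 CPM in the treated GFP-negative libraries. Of the 100 largest rises, 99 could be tested there; 86 rose and 0 fell, against 8.59% of genes that rose in that fraction. Of the 100 largest falls 95 could be tested; 78 fell and 0 rose, against 9.75%. Without control GFP-negative replicate 3 these counts were 89 and 76, against 10.2% and 10.3%, and the genes whose response differed between fractions numbered 333 in place of 355. The median log2 fold change of the rises was 3.95 in GFP-positive and 2.77 in GFP-negative cells, and that of the falls -3.13 and -2.46. CLDN1 changed by 5.67 and DMGDH by 6.11 in GFP-negative cells, close to their GFP-positive values of 5.05 and 6.13. TMEM144 changed by 1.14 there against 6.42, a difference of 5.19 (SE 0.72, adjusted p = 0.00173). The difference between fractions passed an adjusted p of 0.05 for 30 of the rises and 14 of the falls, beside 2.19% of all genes. With the culture as a replicate block, 1264 of 16226 genes passed in place of 355. Of the 30 rises, 29 had the larger response in GFP-positive cells and MMP1 the smaller, and all 14 falls were larger in GFP-positive cells. The ranking favours that direction.

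**Figure D5:**
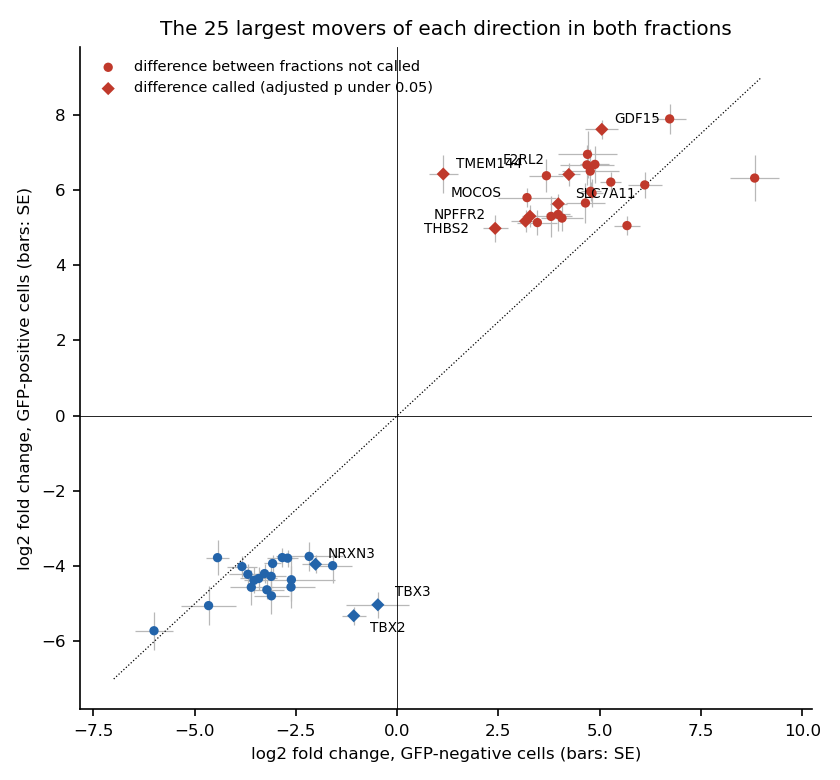
Log2 fold change in GFP-positive (vertical) and GFP-negative cells (horizontal) for those of the 25 largest movers of each direction that could be tested in both fractions, with standard errors; the dotted line marks equal change. TMEM144, TBX2 and TBX3 lie far from that line.

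Called genes differed in base composition. Transcripts in the lowest quartile of GC content had a median log2 fold change of 0.46, with 20.6% rises and 4.62% falls, and those in the highest quartile had -0.42, with 7.26% and 19.97%. The part of this trend in the results was not tested beyond its removal, which left 1556 rises and 1408 falls among 14886 genes, 23 falls in sterol and fatty acid synthesis, 14 in HOX genes, 10 in cadherins and 6 in the retinoid pathway, and 17 rises in amino acid transporters and 11 in cytosolic synthetases.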

How the data were processed

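RNA was measured in 12 libraries, 3 in each of 4 groups (control or treated, GFP-positive or GFP-negative). The authors deposited counts of reads per gene, whole numbers without normalization. Reads were mapped to hg38 with HISAT2 and counted with featureCounts, per the labels; their versions are not given in the sources used here. The methods of the study name an Ensembl annotation, whereas the deposited symbols include LOC names of RefSeq style, and the strand setting of the counting is not given, so antisense and overlapping genes are uncertain, as are near-identical paralogs.

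Counts of the 6 GFP-positive libraries were scaled by TMM, filtered with filterByExpr (minimum count 10, minimum total 15) and tested with the quasi-likelihood test of edgeR 4.0.16 in R 4.3.3. All adjusted p are Benjamini-Hochberg values over all genes tested, and SE is the log2 fold change divided by the root of F. A gene was called where it changed 2-fold or more at an adjusted p under 0.05. Values per library are CPM after TMM scaling within the 6 libraries, except for the motor neuron and other cell type markers, which were scaled over all 12. The difference between fractions is the interaction in a fit of all 12 libraries, called at an adjusted p under 0.05, and the GFP-negative values come from a fit of those 6 libraries. DESeq2 1.42.0, other scalings and filters, a test against a fold change of 2 (glmTreat), removal of a loess GC trend, a replicate block and leaving out each library were alternatives. In simulated counts for the 15333 genes, 65, 69 and 66 genes were changed 2-fold, 4-fold and 8-fold. At an adjusted p under 0.05 alone, the GFP-positive test recovered 66.2%, 95.7% and 98.5% of them. These shares leave out the fold limit of the calls, and the median estimated log2 size of the 2-fold changes was 0.97. Among the genes left unchanged, 18 also passed. For the 16226 genes of the interaction, which has no fold limit, the shares were 22.9%, 66.1% and 88.2%, and 9 unchanged genes passed. SE includes the spread between libraries of a group, while floors and the bounds drawn from them rest on a fixed limit of 3 counts.

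Of the 28278 symbols, 27633 matched a RefSeq GRCh38.p14 position, and 26196 a GENCODE transcript for GC content. The members and the 73 gene lists were chosen with earlier results of these data known. The text names the 25 largest movers of each direction, in each of 17 families up to 4 called members with the largest change and members called against the majority, and the markers. The GFP-negative fit and its repeats without each library, the genes AGT, DLGAP1-AS2, AARS1, CARS1, MARS1, NARS1, TARS1, SLC38A1, SLC7A1, MDM2, CDKN1A, BAX and SREBF2, and other genes named as uncalled or as further examples were chosen after values were seen. Some genes that the naming rule covers are not reported here.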

Additional observations from a re-analysis of the deposited data

Results flagged for a closer look

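For 26 of the genes named in the text or in the lists it draws on, the response to cis-chlordane differed between the sort fractions (adjusted p under 0.05 in the interaction of treatment and fraction, edgeR quasi-likelihood test, all 12 libraries). Values are log2, the GFP-positive response minus the GFP-negative one, and genes ranked by their GFP-positive change are favoured to show the larger response there. In 11 of the 26 the difference kept its call in every alternative run. Those with a positive difference were TMEM144 (5.19), GADD45B (2.76), KCNG1 (2.74), THBS2 (2.47), MX1 (2.31), ADAMTS1 (2.19), F2RL2 (2.09), MOCOS (1.94) and PAX6 (1.81). The same held for the negative differences of TBX2 (-4.33) and ADAMTS12 (-1.84).

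The other 15 lost the call in at least 1 alternative, in most of them when a library was left out. Positive differences were AGT (3.55), GDF15 (2.47), NPFFR2 (1.91), FOXP2 (1.69), DHRS3 (1.69), EDA2R (1.62), SLC7A11 (1.57), STC2 (1.29) and SLC1A5 (1.04). Negative ones were TBX3 (-4.64), MMP1 (-4.57), HOXB9 (-2.36), NRXN3 (-2.02), MNX1 (-1.49) and PHLDA3 (-1.32). Of these, MNX1, PHLDA3, FOXP2 and DHRS3 lost the call in most of the fits with a library left out. HOXB9 and MMP1 rose in both fractions, and more in GFP-negative cells. TBX3 lost its call without treated GFP-negative replicate 3, and MMP1 without control GFP-positive replicate 3.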

How the results depend on the processing

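The number of calls depended on how the fold limit was tested. Tested against a fold change of 2 (glmTreat), 920 genes rose and 728 fell, in place of 1959 and 1716. In the other alternatives rises ranged from 1556 (GC trend removed) to 2315 (library size alone) and falls from 1397 (library size alone) to 1855 (all 12 libraries in 1 fit); library size alone thus moved the split towards rises. DESeq2 gave 1817 and 1709. Leaving out a library gave 1785 to 2100 rises and 1550 to 1920 falls.

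The count of genes whose response differed between fractions was less stable: 355 in edgeR, 789 in DESeq2, 1264 with the culture as a replicate block, and 141 to 414 when a library was left out. It was over 1.5 times lower without control GFP-negative replicate 2 (172), any control GFP-positive replicate (174, 141 and 209), any treated GFP-negative replicate (154, 224 and 216) and treated GFP-positive replicates 1 and 3 (143 and 180). With the replicate number as a block, 1944 rises and 1708 falls were called. Same-numbered control and treated libraries correlated in their deviations at -0.02, 0.11 and 0.15, so the numbers were not taken to pair them; for the fractions the values were 0.28, 0.085 and 0.21 in controls and 0.16, 0.20 and 0.36 in treated libraries, and each library there correlated best with its own number.

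Among the 17 described families, the median changed sign for the T-box list with the GC trend removed (0.24) or without control replicate 1 (range -0.551 to 0.0516 over the libraries left out), and for the secreted hormones without treated replicate 2 (range -0.0213 to 0.342). Medians near 0 also changed sign: potassium channels with the GC trend removed (0.0063), with library size alone (0.0113) and without treated replicate 3 (0.122), proteases with all 12 libraries in 1 fit (-0.0123) and without treated replicate 1 (-0.0338), proteasome genes with the GC trend removed (-0.0965) and all 12 libraries (-0.0017), and long intergenic noncoding RNAs with library size alone (0.0819) and without control replicate 1 (0.0602). MDM2 changed sign with the GC trend removed (-0.03). The cause was not tested. Leaving out each GFP-negative library in turn (chosen after seeing the data) gave 77 to 89 of the 100 largest rises called higher and 69 to 83 of the 100 largest falls called lower in those cells. Of 151 named genes that were called, 129 kept the call in every alternative and 139 in every one other than glmTreat. With 3 libraries a group, 2-fold changes are detected incompletely.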

Other observations

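Several gene lists without a place among the 17 described families also had more calls in one direction than the 12.8% of genes that rose and 11.2% that fell. For GFP-negative cells, the shares of all genes were 8.59% and 9.75%. In the serine, one-carbon, asparagine and proline synthesis list 13 of 32 tested genes rose and 1 fell (median log2 fold change 0.78), and in GFP-negative cells 16 rose and 4 fell. Metallothioneins and zinc transporters had 8 rises and 1 fall among 26 genes (0.91). Translation initiation and elongation factors had 15 rises and 0 falls among 67 (0.40), and NRF2 antioxidant targets 12 rises and 3 falls among 35 (0.30). Cytosolic ribosomal proteins stayed mostly under the fold limit, with 2 rises and 0 falls among 82 (0.21).

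Histone genes had 10 rises and 1 fall among 27 (0.92) in GFP-positive cells and 3 rises and 2 falls among 26 (0.07) in GFP-negative cells; the counts of neither fraction are a test of their difference, and no histone gene passed the interaction test. Host transcripts of small nucleolar RNAs had 9 rises and 0 falls among 25 (0.85). DNA replication and mitosis genes had 13 falls and 2 rises among 43 (-0.58) in GFP-positive cells and 37 falls and 1 rise in GFP-negative cells (-1.42), with 7 of them past the interaction test. Notch pathway genes had 10 falls and 0 rises among 23 (-0.60), glutamate receptors 9 falls and 1 rise among 27 (-0.58), and SOX factors 5 falls and 0 rises among 13 (-0.84).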
